A study of Mus musculus with 4 samples.

Results

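Axon guidance genes encode the secreted and membrane-bound cues that attract or repel growing axons, and the receptors that read them. The 60 genes described here are those of the semaphorins and their plexin and neuropilin receptors, the ephrins and the Eph receptors, the Slits with Robo1 and Robo2, and netrin 1 with its receptor Dcc. They were taken from the RefSeq annotation of GRCm38.p6, 51 by the pattern of the symbol and 9 by name, out of 21887 protein-coding genes. Peaks of the transcription factor STAT3 at these genes came from ChIP-seq, the sequencing of DNA pulled down with an antibody to STAT3, in mouse spinal cord. C57BL/6 mice had a laminectomy at thoracic level 9 alone (sham), or the same surgery with a moderate contusion of 60 kdyn (SCI), and the epicentre tissue was taken after 7 days. The labels used here state neither age nor sex. For sham and for SCI there was 1 ChIP library with 1 input library, made from cells dissociated from the pooled cord of 3 mice and not sorted for a cell type. With 1 library per condition no difference between sham and SCI has a replicate check, and no test between conditions was run. The input libraries were not analysed here, and peak lists hold no expression values by which the cell types could be checked.

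STAT3 carries signals of interleukin-6 and related cytokines to the nucleus and acts in reactive astrocytes. Semaphorins, ephrins and Slits are best known as repulsive cues, and several are made by glia, meningeal cells and fibroblasts around a spinal cord lesion. Class 3 semaphorins are secreted and signal through neuropilins joined to class A plexins, whereas most other semaphorins are membrane-bound and bind plexins directly. Ephrins and Eph receptors signal in both directions where cells touch. Slits repel axons through Robo receptors, and netrin 1 attracts axons through Dcc.

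The deposited lists give the position and a score of each peak, 88765 peaks in sham and 36249 in SCI on chromosomes 1 to 19, X and Y. The score is the authors' own value, is 5 or more in every row, and ranks peaks within a list (top 1% means among the highest 1% of that list). Whether the lists share 1 scale of scores is not stated, and depth is unknown. The usual width of a peak was 190 bp in sham and 164 bp in SCI, and some of the highest-scoring peaks named below were narrower. A peak was assigned to a gene when its centre lay inside the gene or within 5 kb on either side. Long genes catch more peaks, so each guidance gene was set beside 200 other protein-coding genes nearest to it in length, 100 shorter and 100 longer. These are called like-length genes below.

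Few peaks came near the starts of these genes, and the promoters with a peak closest to them are printed for that reason. RefSeq promoter sequences (250 bases before to 50 after a start, GRCm38.p6) were present for 51 of the 60 genes, 67 starts in all. A sham peak overlapped 1 of these windows, at an internal start of Epha6, and no SCI peak overlapped any. Of the 17492 protein-coding genes with such a sequence, sham peaks overlapped 1.75% and SCI peaks 0.72%. The 250 bases before the Epha6 start (chr16:60605532-60605781, minus strand) read as follows, with the 122 bases under the sham peak in capitals.
Epha6: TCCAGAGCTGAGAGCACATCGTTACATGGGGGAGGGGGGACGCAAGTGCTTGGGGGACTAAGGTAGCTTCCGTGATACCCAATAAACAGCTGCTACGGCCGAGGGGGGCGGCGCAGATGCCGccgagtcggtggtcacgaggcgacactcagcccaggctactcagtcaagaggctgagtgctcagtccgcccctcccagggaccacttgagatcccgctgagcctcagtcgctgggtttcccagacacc
The sham peak there, at chr16:60605660-60605849, scored 13.0 and stood at the top 22.2% among sham peaks, and the nearest SCI peak lay 31887 bp from the window. The other promoters with a peak less than 400 bp from the window were those of Efna3, Robo2 and Sema6b (all on the minus strand), at chr3:89322940-89323189, chr16:75447294-75447543 and chr17:56133853-56134102. The capitals in the first mark TTCNNNGAA, the core motif bound by STAT proteins, which reads the same on both strands.
Efna3: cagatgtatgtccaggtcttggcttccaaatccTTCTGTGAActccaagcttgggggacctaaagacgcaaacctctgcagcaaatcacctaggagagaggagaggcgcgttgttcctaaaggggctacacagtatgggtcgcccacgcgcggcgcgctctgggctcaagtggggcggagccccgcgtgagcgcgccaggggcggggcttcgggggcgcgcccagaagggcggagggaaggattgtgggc
Robo2: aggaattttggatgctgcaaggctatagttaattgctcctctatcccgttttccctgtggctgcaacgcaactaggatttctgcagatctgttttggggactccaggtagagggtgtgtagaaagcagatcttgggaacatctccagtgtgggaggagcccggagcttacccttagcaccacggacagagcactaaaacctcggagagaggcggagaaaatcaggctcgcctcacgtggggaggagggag
Sema6b: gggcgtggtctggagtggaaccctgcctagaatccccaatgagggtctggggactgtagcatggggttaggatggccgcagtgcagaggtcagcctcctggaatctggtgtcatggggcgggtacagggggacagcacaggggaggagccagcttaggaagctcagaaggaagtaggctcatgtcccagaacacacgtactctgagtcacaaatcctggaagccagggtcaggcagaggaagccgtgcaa
At Efna3 both lists had a peak upstream of this sequence, 352 bp from the window in sham and 418 bp in SCI. At Robo2 a sham peak lay 98 bp beyond the other end of the window, inside the gene, and at Sema6b an SCI peak lay 260 bp upstream of the window.

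TTCNNNGAA was found in the promoter window of 3 of the 51 genes (5.88%), against 8.92% of the 17492 protein-coding genes with a sequence and 8.30% of all 32851 windows. The 3 matches are printed with up to 10 bases on either side, in the direction of transcription and with the motif in capitals.
Efna3: ttccaaatccTTCTGTGAActccaagctt
Epha3: ccgagcggggTTCGCAGAAaggcagccag
Sema3e: ctggagacacTTCCTAGAA
The Efna3 match (chr3:89323148-89323156) lay 385 bp from the nearest sham peak and 451 bp from the nearest SCI peak. The Epha3 match (chr16:63864202-63864210) lay 11400 bp from the nearest sham peak and 47997 bp from the nearest SCI peak. The Sema3e match (chr5:14025317-14025325) is within the first 50 transcribed bases, 880 bp from an SCI peak and 3478 bp from a sham peak. None of the 3 matches lay under a peak, but of the 67 windows only that of Epha6, which has no match, overlapped one. The sequence under the other peaks was not searched, so this does not show whether they hold the motif. The median GC content of the 67 windows was 64.0%, and that of the windows of all protein-coding genes 56.3%.

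As a group, guidance genes had a STAT3 peak about as often as other genes of their length. In sham 47 of the 60 genes had a peak, where like-length genes gave 50.67, and in SCI 40 had one, where like-length genes gave 40.31. The background over all protein-coding genes was 66.7% in sham and 43.9% in SCI. The guidance genes' higher shares of 78.3 and 66.7% go with their length, a median of 45.2 kb against 17.2 kb. Both lists had a peak at 37 guidance genes, where like-length genes gave 37.7 and 37.3% of all protein-coding genes had both. A sham peak alone was found at 10 (like-length genes gave 12.98, and the share over all protein-coding genes was 29.3%). An SCI peak alone was found at 3 (like-length genes gave 2.615, and the share was 6.51%). At 10 neither list had a peak, against 6.715 from like-length genes and 26.8% of all protein-coding genes.

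**Figure D1:**
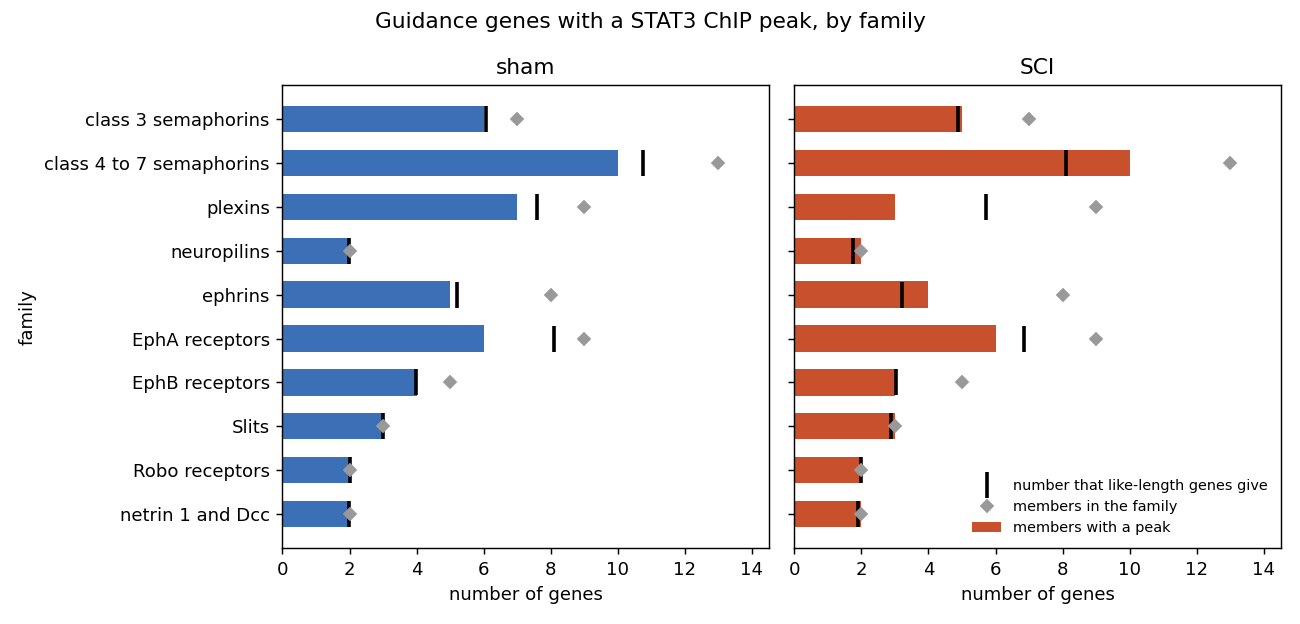
Bars give the number of guidance genes with a peak in sham (left) and SCI (right) for each family (vertical axis), black ticks the number that like-length genes give, and grey diamonds the family size; the horizontal axis counts genes. Plexins in SCI stand at 3 genes beside a like-length number of 5.71, and class 4 to 7 semaphorins in SCI at 10 beside 8.09.

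Peak numbers were also near those of like-length genes. The 60 genes held 414 sham peaks, where like-length genes gave 384.6, and 151 SCI peaks, where they gave 160.4. The sham surplus sat at the 4 longest genes, Robo2, Dcc, Robo1 and Epha6, whose like-length genes, the same 200 for each, had a median length of 765 kb. These 4 genes were longer, 969 to 1555 kb, so their counts cannot be read as a surplus for their length. Per 100 kb, with the 5 kb sides, they held 2.43, 2.71, 3.69 and 3.37 sham peaks in that order. The other guidance genes together held 3.50. Without these 4 the totals were 275 sham peaks beside 280.4, and 99 SCI peaks beside 116.5. Gene by gene, 30 members lay at or above their like-length mean in sham and 22 in SCI. In sham only Efna5 lay above the middle 95% range of its like-length genes, and in SCI only Sema4a. That is 1 gene of 60 in each list, and 1.52% of all protein-coding genes lay above their range in sham and 1.17% in SCI. No guidance gene lay below its range, as did 0.174 and 0.0411% of all protein-coding genes. Only guidance genes of 100 kb or more in sham and of 300 kb or more in SCI had a lower bound above 0. At the others no count could lie below the range, so for them this says nothing about a lack of peaks.

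**Figure D2:**
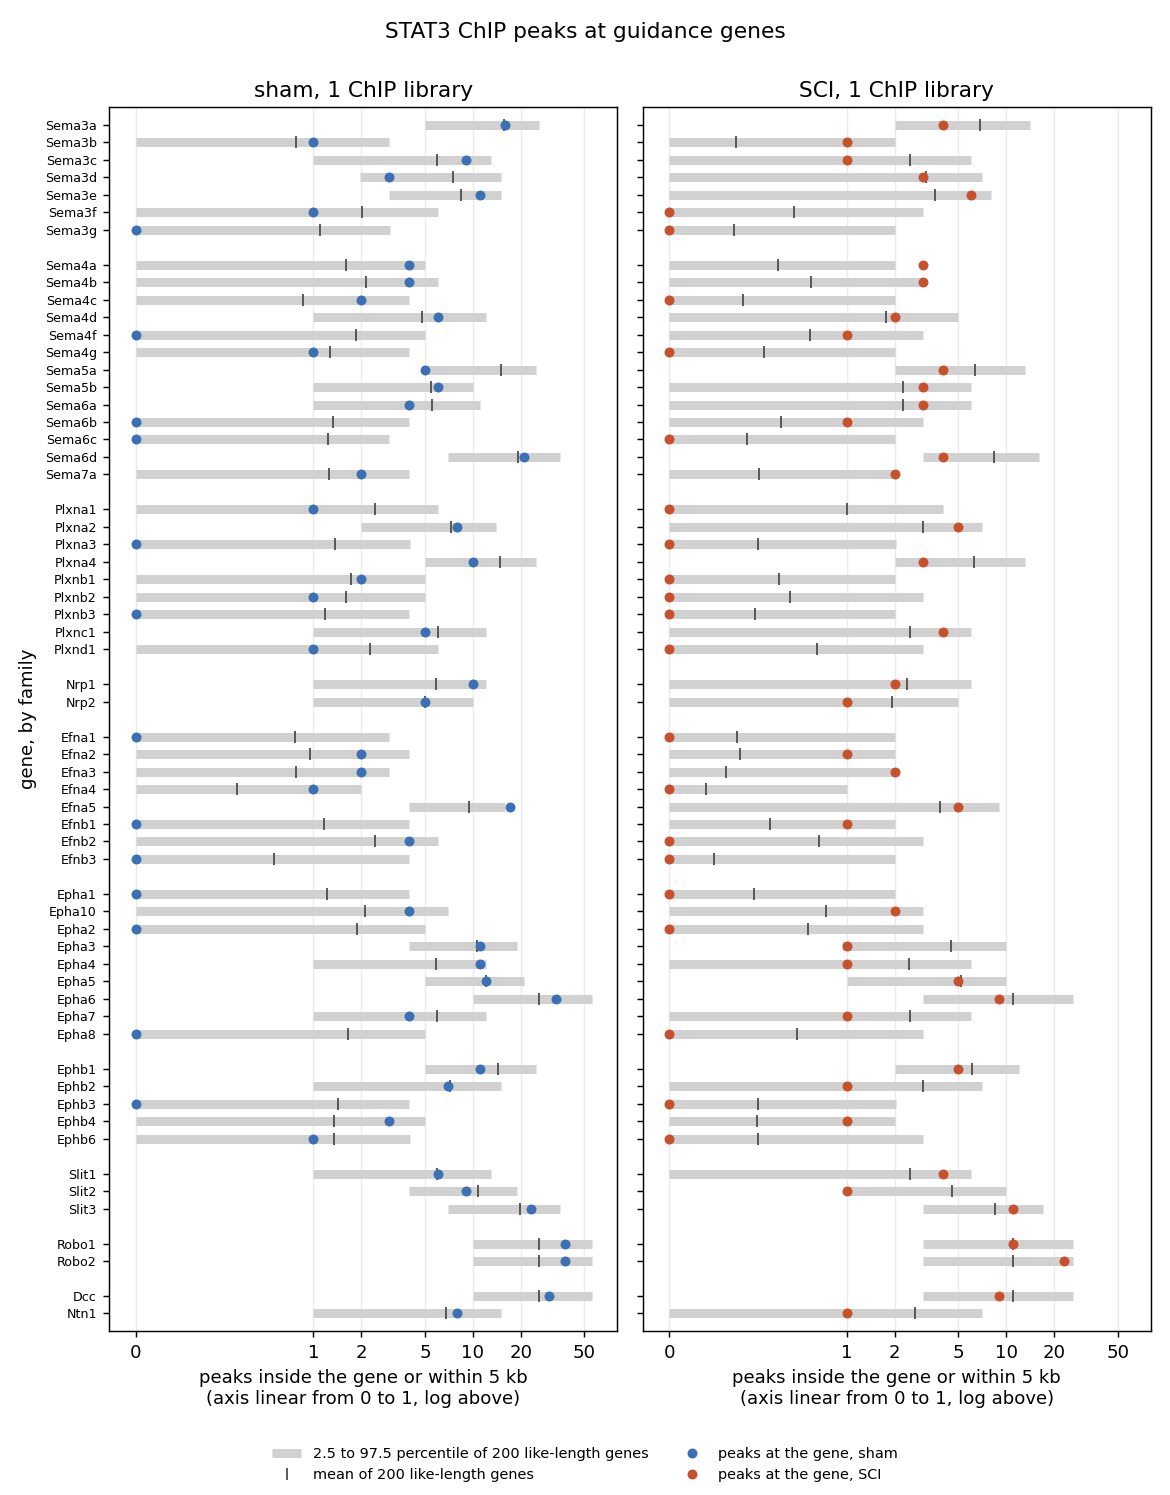
Each row is 1 of the 60 genes, grouped by family; dots give its number of peaks in the sham (left) and SCI library (right), grey bars the middle 95% range and ticks the mean of its 200 like-length genes. Efna5 with 17 sham peaks and Sema4a with 3 SCI peaks are the dots outside their bars.

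The secreted class 3 semaphorins had peaks at 6 of 7 genes in sham and at 5 in SCI, with 41 and 15 peaks. Like-length genes gave 6.06 and 4.89 genes, and 41.7 and 17.5 peaks. Sema3a, the class member best known for the collapse of growth cones (gene ID 20346, chr5:13124822-13603485), had 16 sham and 4 SCI peaks beside like-length means of 15.7 and 6.82. Its highest SCI peak, at chr5:13145225-13145388, scored 21.4 in the top 2.75% and had no sham peak over it. Sema3c had 9 sham peaks and 1 SCI peak, while Sema3d had 3 in each list. Sema3b had 1 peak in each list at the same place, outside the gene and also within 5 kb of Ifrd2 and Lsmem2. Sema3f had 1 sham peak alone, and Sema3g none, with its nearest SCI peak 13.2 kb away.

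Sema3e, whose protein binds Plxnd1 without a neuropilin (gene ID 20349, chr5:14025276-14256689, plus strand), carried a run of peaks in its first 12 kb in both lists. The SCI peaks there were centred 1.01, 2.47, 5.59 and 11.1 kb from the start, with scores of 7.00, 15.6, 6.61 and 20.6. The sham peaks were centred 3.62, 5.68, 7.32 and 11.2 kb from the start, with scores of 13.1, 26.4, 9.92 and 17.9. Peaks of both lists overlapped at 5.59 and 11.1 kb and again at 149 kb, so that 3 of the 6 SCI peaks of Sema3e were shared. In total Sema3e had 11 sham peaks (like-length mean 8.46) and 6 SCI peaks (3.56), both within the like-length range.

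The membrane-bound semaphorins of classes 4 to 7 had a peak at 10 of 13 genes in each list, where like-length genes gave 10.8 in sham and 8.09 in SCI. Sema4a, which acts on immune cells as well as axons (gene ID 20351, chr3:88435959-88461182, 25.2 kb), had 3 SCI peaks beside a like-length mean of 0.61 and a range of 0 to 2. Their scores were 23.9, 5.32 and 13.97, the first in the top 1.78% of the SCI list. The 4 sham peaks of Sema4a scored 7.58, 6.72, 6.81 and 23.6. The highest SCI peak (chr3:88445397-88445560) overlapped the sham peak of 6.81 and not the sham peak of 23.6, which lay at chr3:88447261-88447450.

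Sema4d, a ligand of Plxnb1 made by lymphocytes and oligodendrocytes, held a sham peak in the top 0.517% (chr13:51726391-51726580, score 46.1) that the SCI list did not have. It had 6 sham and 2 SCI peaks in all. Sema7a, a semaphorin held to the membrane by a lipid anchor, had 2 peaks in each list, of which the sham peak at chr9:57957517-57957706 scored 29.1 in the top 3.06%. Sema4f and Sema6b had a peak in SCI alone, 1 each, with scores of 5.82 (chr6:82929994-82930157) and 6.89 (chr17:56134362-56134525). Both stood in the lower part of the SCI list, at the top 77.3 and 56.4%. Sema4c had 2 sham peaks and Sema4g 1, with none in SCI.

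Among the longer members Sema6d had 21 sham and 4 SCI peaks (like-length means 19.3 and 8.32). Sema5a had 5 and 4 over 452 kb, where like-length genes averaged 15.0 and 6.34, so its sham count sat at the lower bound of the range of 5 to 25. Sema5b had 6 and 3, Sema6a 4 and 3, and Sema4b 4 and 3. Sema6c had no peak in either list, though a sham peak lay 5.12 kb away, just outside the window. Over all 60 genes, 20 sham and 10 SCI peaks lay outside a gene but within 5 kb, and a further 21 and 4 lay between 5 and 10 kb from a guidance gene.

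Plexins, the semaphorin receptors, had peaks at 7 of 9 genes in sham and at 3 in SCI, beside like-length numbers of 7.60 and 5.71. The 3 with both were the long genes Plxna2 (8 sham and 5 SCI peaks), Plxna4 (10 and 3) and Plxnc1 (5 and 4). Plxna1, Plxnb2 and Plxnd1 had 1 sham peak each and Plxnb1 had 2, all without an SCI peak. Plxna3 and Plxnb3, both on the X chromosome, had none. Their nearest peaks lay just past the 5 kb window in both lists, 7.01 kb (sham) and 7.03 kb (SCI) from Plxna3 and 8.48 and 8.46 kb from Plxnb3. With a window of 10 kb both genes would count as having a peak in both lists.

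The neuropilin genes had 15 sham peaks and 3 SCI peaks, with no position in common. SCI peaks made up 16.7% (3.58 to 41.4%) of their peaks, an interval that spans the 29.0% of both lists. Of all SCI peaks 21.6% were shared, so with only 3 SCI peaks the lack of a common position says little. Nrp1, the receptor of Sema3a that also binds VEGF (gene ID 18186, chr8:128358591-128505476), had 10 sham peaks (like-length mean 5.87) and 2 SCI peaks (2.4). A pair of its sham peaks stood side by side 6.93 and 7.25 kb from the start, with scores of 41.5 (top 0.778%) and 28.3. The SCI peaks of Nrp1 scored 7.00 and 5.93. Nrp2 had 5 sham peaks and 1 SCI peak.

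The ephrin ligands had peaks at 5 of 8 genes in sham and at 4 in SCI (like-length numbers 5.215 and 3.215). Efna5, a repulsive cue in topographic maps (gene ID 13640, chr17:62602957-62881317), had 17 sham peaks, where its like-length genes averaged 9.49 with an upper bound of 16. Their scores ran from 5.17 to 20.4, with none in the top 8% of the sham list. Its 5 SCI peaks were near the like-length mean of 3.86 and overlapped no sham peak. They were confined to a stretch between 48.7 and 102 kb from the start, in which the sham list had 2 peaks. The highest of them, at chr17:62832519-62832682, scored 24.5 in the top 1.63% of the SCI list.

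The short ephrin genes had few peaks. Efna3 (gene ID 13638, chr3:89313899-89322939) had 2 in each list. The shared pair lay upstream of the gene, with centres 696 bp (sham) and 749 bp (SCI) from its end on the start side, and scored 7.61 and 7.88. Efna2 had 2 sham peaks and 1 SCI peak, and Efna4 1 sham peak alone. Efnb1, a ligand of Eph receptors on the X chromosome, had 1 peak in SCI alone (chrX:99148306-99148469, score 7.58). Efnb2, a marker of arterial endothelium, had 4 sham peaks and none in SCI. Efna1 and Efnb3 had none in either list, with the nearest sham peaks 8.20 and 13.3 kb from them.

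The EphA receptors, tyrosine kinases, had peaks at the same 6 of 9 genes in both lists, where like-length genes gave 8.10 and 6.84. They held 75 sham peaks, above the 67.4 of like-length genes, and 19 SCI peaks, below their 28.5. SCI peaks thus made up 20.2% of all EphA peaks (95% exact binomial interval 12.6 to 29.8%, which covers counting error only), against 29.0% of the peaks of both lists. The interval spans that background. Of the 75 sham peaks 33 lay at Epha6, whose like-length genes averaged 26.0 and had a shorter median length of 765 kb. Epha4, a receptor for both classes of ephrin that is found on astrocytes and motor neurons (gene ID 13838, chr1:77367182-77515107), had 11 sham peaks and 1 SCI peak. Its like-length means were 5.83 and 2.44. The SCI peak scored 11.6 (chr1:77471038-77471201) and overlapped none of the sham peaks. Epha3 likewise had 11 and 1, but its SCI peak (chr16:63816042-63816205, score 13.4) lay within the highest sham peak of the gene (score 22.8).

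Epha6, an EphA receptor with a very long gene, had 33 sham and 9 SCI peaks over 969 kb. Its highest SCI peak scored 23.3 (chr16:60573544-60573595, 52 bp wide, top 2.00%), and its highest sham peaks scored 31.9 and 30.9. Epha5 had 12 and 5, and Epha7 4 and 1. Epha10, a receptor whose kinase domain is inactive (gene ID 230735, chr4:124881530-124917801), had 4 sham and 2 SCI peaks and held the highest sham peak of the 60 genes, with a score of 69.2, ranked 55 (chr4:124905715-124905803). This sham peak was 89 bp wide, and an SCI peak with a score of 8.48 overlapped it. Epha1, Epha2 and Epha8 had no peak in either list, although 65, 82 and 80.5% of their like-length genes had one in sham. The nearest sham peak lay 54.3 kb from Epha1, 21.1 kb from Epha2 and 5.68 kb from Epha8.

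Among the EphB receptors 4 of 5 genes had peaks in sham and 3 in SCI, as like-length genes gave (3.995 and 3.02). Ephb2, which acts in synapse formation and in the meeting of astrocytes with fibroblasts, had 7 sham peaks and 1 SCI peak. The SCI peak (chr4:136746508-136746671, score 14.7, top 9.58%) lay over its highest sham peak (score 41.2, top 0.816%). Ephb1 had 11 and 5 peaks, Ephb4 3 and 1, and Ephb6 1 sham peak. Ephb3 had none, with the nearest peaks 56.6 kb (sham) and 70.0 kb (SCI) away.

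The Slit and Robo genes had peaks in both lists at all 5 members, as 98.5% or more of their like-length genes did except for Slit1 in SCI (90%). Slit3 (gene ID 20564, chr11:35121456-35708507) had 23 sham and 11 SCI peaks, beside like-length means of 19.7 and 8.54, and its highest SCI peak scored 26.7 in the top 1.11%. Slit1 had 6 and 4, with an SCI peak in the top 2.95% (score 21.1). Slit2 had 9 and 1, beside 10.8 and 4.58. Robo1, a receptor of the Slits, held the highest SCI peak of the 60 genes, ranked 101 with a score of 37.0 (chr16:72710217-72710272), at a place where the sham list had none. This SCI peak was 56 bp wide. Robo1 and Robo2 each had 38 sham peaks, while Robo2 had 23 SCI peaks and Robo1 had 11. SCI peaks made up 37.7% (25.6 to 51.0%) of the peaks at Robo2 and 22.4% (11.8 to 36.6%) of those at Robo1, intervals that overlap each other and span 29.0%.

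Netrin 1 and Dcc both had peaks in both lists. Ntn1 (gene ID 18208, chr11:68209364-68386826) had 8 sham peaks, of which the highest scored 30.3 (top 2.67%), and 1 SCI peak of 5.83. Dcc (gene ID 13176, chromosome 18, 71253613 to 72351228) had 30 sham and 9 SCI peaks. It held the shared position that stood highest in both lists together, with a sham score of 21.7 (top 7.18%) and an SCI score of 20.7 (top 3.16%). Over the 50 guidance genes with a peak, the 95% interval of the SCI share spanned 29.0% in every case. At a gene with 1 or 2 peaks in all, the interval spans 29.0% whatever the split. At Sema4c, with 2 sham peaks and no SCI peak, it ran from 0 to 84.2%. At Efnb2, with 4 sham peaks and no SCI peak, it ran from 0 to 60.2%. At genes with few peaks the interval thus could not lie below 29.0%, so for them this says nothing about a lack of SCI peaks. Of 16016 protein-coding genes with a peak, 0.381% had an interval above that share and 0.0812% below it.

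**Figure D3:**
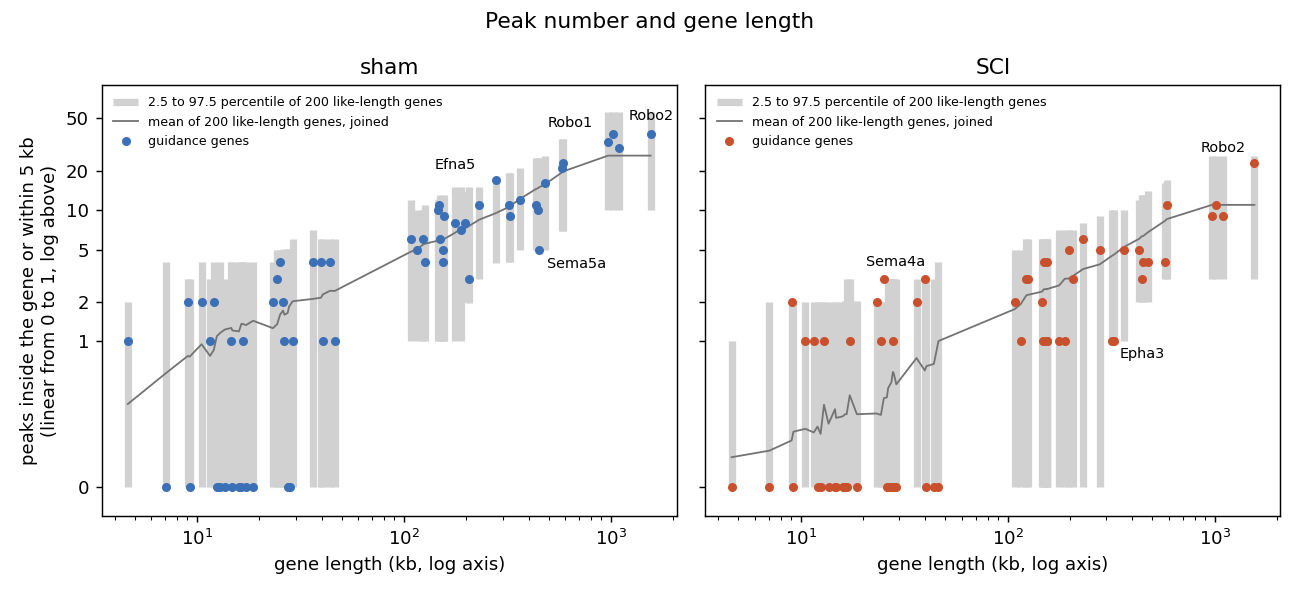
The number of peaks per gene (vertical axis, linear to 1 and logarithmic above) is plotted against gene length in kb (log axis) for sham and SCI; bars and line give the range and mean of like-length genes. The 29 genes of 100 kb or more all had peaks in both lists, and of the 31 shorter ones 18 had peaks in sham and 11 in SCI.

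Long and short members differed in how often they had a peak. The 29 genes of 100 kb or more, among them Robo2 at 1555 kb, had peaks in both lists without exception, where like-length genes gave 28.8 in sham and 27.4 in SCI. Among the 31 genes under 100 kb, down to Efna4 at 4.64 kb, 18 had peaks in sham and 11 in SCI, where like-length genes gave 21.9 and 12.95. The 32 ligand genes held 168 sham peaks beside 163.8 from like-length genes, and 67 SCI peaks beside 68.2. The 28 receptor genes held 246 beside 220.7 in sham and 84 beside 92.2 in SCI. The 4 longest genes, Robo2, Dcc, Robo1 and Epha6, are all receptors. Each had 30 to 38 sham peaks beside 26.0 from the same like-length genes, whose median length was only 765 kb. For the 13 genes of 300 kb or more the density was also set beside the 1 Mb on either side of the gene. Some flanks held other guidance genes, Sema3d and Sema3e beside Sema3a, and part of Robo1 and Robo2 beside each other. The ratios are therefore not independent of one another. In sham the gene was the denser in 8 of 13, with a median ratio of 1.13, from 0.328 at Sema5a to 2.03 at Slit3. In SCI it was the sparser in 9 of 13, with a median ratio of 0.667, from 0.233 at Epha3 to 1.47 at Slit3. Of 544 other genes of that length 62.7% were sparser than their flanks in sham and 58.3% in SCI. Slit3 was denser than its flanks in both lists, and so were Plxna4, Epha5 and Robo1.

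**Figure D4:**
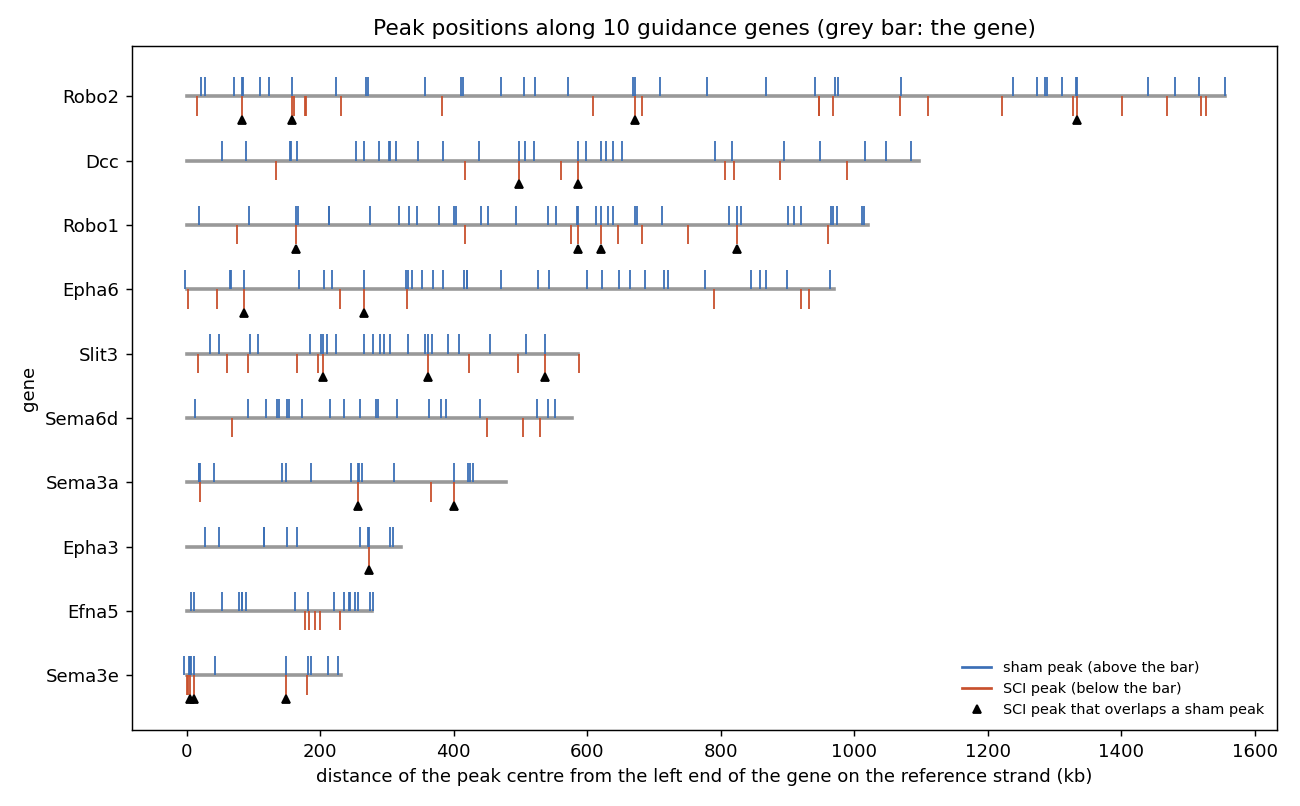
Peak positions along 10 long guidance genes, drawn as distance from the left end of the gene in kb; blue ticks above the bar are sham peaks, red ticks below it SCI peaks, and triangles mark SCI peaks that overlap a sham peak. The SCI peaks of Efna5 are gathered in 1 stretch, and those of Sema3e mostly near its left end, which is its start.

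Pooled over the genes, the peaks did not favour 1 part of the gene, although at single genes such as Efna5 and Sema3e the SCI peaks were gathered. For the 51 guidance genes with a known strand, 3 segments of equal length (first, middle and last) held 105, 120 and 110 sham peaks and 39, 40 and 42 SCI peaks. The first segment took 31.3% of the peaks in sham (26.4 to 36.6%) and 32.2% in SCI (24.0 to 41.3%), and for other protein-coding genes the shares were 34.4 and 34.6%. Only 6 guidance genes had a sham peak centre within 1 kb of a gene end and 5 an SCI one (10 and 8.33% of the 60, against 13.1 and 5.7% of all protein-coding genes). In sham these were Efna3, Plxnb1, Robo2, Sema4b, Sema4c and Sema4g, and in SCI Efna3, Efnb1, Plxnc1, Sema4b and Slit3. The Robo2 peak, 392 bp inside the start with a score of 17.6, and those at Efna3 and Sema4c were at the start of the gene. At Plxnb1, Sema4b, Sema4g, Efnb1, Plxnc1 and Slit3 the peak was at the far end. The Sema4c peak also lay within 5 kb of Fam178b. The peaks at the end of Sema4b also lay within 5 kb of Cib1, those at Sema4g by Mrpl43 and Twnk, and the one at Plxnc1 by Cep83, so they cannot be assigned to 1 gene. In all, 12 of 414 peaks in sham and 7 of 151 in SCI lay within 5 kb of another protein-coding gene. Among them were both peaks of Sema3b and the only SCI peaks of Ephb4 (by Zan) and Efna2 (by Cirbp and Fam174c). The only sham peak of Plxnb2 (by Dennd6b) was another. These lay outside the guidance gene and cannot be assigned to 1 gene either.

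Sham and SCI peaks met at 36 positions. At guidance genes 36 of 151 peaks found in SCI had at least 1 bp in common with one in sham, 23.8% (17.3 to 31.4%), against 21.6% of all SCI peaks and 22.97% of those at other protein-coding genes. From the sham side 36 of 414 were shared, 8.70% (6.16 to 11.8%), against 8.84% of all sham peaks. The 36 positions lay at 22 genes, 31 inside a gene and 5 beside it, with centres a median of 45 bp and at most 150 bp apart. Robo1 and Robo2 had 4 each, Sema3e and Slit3 3 each, and Dcc, Epha6, Plxna2 and Sema3a 2 each. Epha3, Epha10, Ephb1, Ephb2, Ephb4, Efna3, Slit1, Slit2, Sema3b, Sema3d, Sema4a, Sema4b, Sema4d and Sema7a had 1 each.

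**Figure D5:**
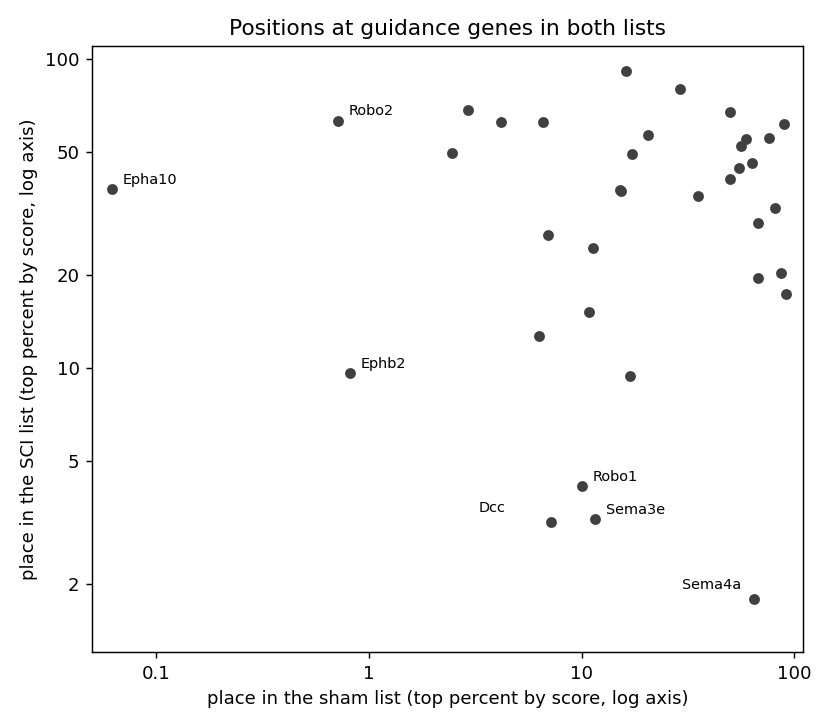
Each dot is 1 of the 36 positions at guidance genes that both lists hold; the axes give its place in the sham list and in the SCI list as the top percent by score (log axes, lower is stronger). Dots at Dcc and Ephb2 lie in the top 10% of both lists, while the strongest sham position, at Epha10, is in the top 37.8% in SCI.

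Of the 36 positions 2, at Dcc and Ephb2, were in the top 10% of both lists, with Robo1 (chr16:72191915-72192078 in SCI) just outside at 10.1% in sham and 4.13% in SCI. A further 8 were in the top 10% of sham alone and 4 in that of SCI alone, and 22 in neither. At Robo2 the sham peak of 42.3 met an SCI peak of 6.56, and at Sema4a the SCI peak of 23.9 met a sham peak of 6.81. The scores of the guidance peaks centred on a median of 8.15 for sham peaks and 7.49 for SCI peaks, beside 8.07 and 7.37 for the whole lists. In the top 10% of their list were 33 sham peaks, 7.97% (5.55 to 11.01%), and 19 SCI peaks, 12.6% (7.75 to 18.95%). Many scores in both lists have the form 2·√n − 1 with n whole (to within 0.0001). Of the 50 SCI peaks at guidance genes with such a score, 0 were shared, and of the other 101 SCI peaks 35.6% were. In the whole SCI list the shares were 4.82% of peaks with such a score and 29.97% of the others. The highest SCI peak of Sema3a, the SCI peak of Epha4 and both SCI peaks of Nrp1 had such a score, and none of them was shared. Other named peaks with such a score included the sham peak over the Epha6 promoter window and the SCI peaks at the far ends of Plxnc1 and Slit3. These were not shared either. In sham 1 of 93 such peaks was shared, and 10.9% of the other 321, beside 0.727 and 11.3% in the whole sham list.

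The wider guidance pathway, a list of 72 further receptors, ligands and intracellular mediators, had peaks at 66 genes in sham and 59 in SCI, where like-length genes gave 64.3 and 53.2. Both lists had a peak at 55 of them, sham alone at 11, SCI alone at 4 and neither at 2. Over all protein-coding genes, with no allowance for length, the shares in that order were 37.3, 29.3, 6.51 and 26.8%. The 72 genes held 399 sham peaks (like-length genes gave 408.0) and 198 SCI peaks (167.7). Of the 198 SCI peaks 42 were shared, and 21.6% of all SCI peaks were. The highest sham peaks lay at Rock1, a kinase that drives growth cone collapse, with a score of 98.8, and at Farp1, Arhgef11, Ablim1 and Unc5d, with scores from 63.8 to 49.5. All of these sham peaks were narrower than the usual 190 bp. The highest SCI peaks lay at Enah, an actin regulator (32.7, chr1:181927634-181927797), Ptk2, which encodes focal adhesion kinase (25.6), Ntng1 (21.7), Rgma (21.4) and Ngef, an exchange factor below Epha4 (20.8). Of these SCI peaks only that at Rgma was narrower than the usual 164 bp. Rgma encodes a repulsive cue for axons and had 3 peaks in each list, none shared. Its highest SCI peak had the same score as that of Sema3a, of the form 2·√n − 1. The genes with an SCI peak alone were Cdk5, Ntn3, Ntn5 and Robo4, and those with none were Gipc1 and Rhod.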

How the data were processed

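STAT3 ChIP-seq peak lists of 1 sham and 1 SCI library were used, each matched to its sample by title. Reads were aligned with Bowtie2 to mm10, per the submitters' processing notes. Caller, control and cutoff of the peaks were unnamed (not given in the sources used). Each deposited row holds for its peak a score by the authors and a −log10 value where the layout places a q-value. The −log10 value and the offset of the peak point, another deposited column, were not used. Gene positions and promoter sequences came from RefSeq GRCm38.p6, the assembly that mm10 names. Positions are 1-based.

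The genes, lists and comparisons were chosen with earlier results of these data known. Named are genes with a peak in SCI alone, with a shared position, with 1 of the 10 highest peaks at guidance genes in either list, outside their like-length range, without any peak, with a peak within 1 kb of an end or over a promoter sequence, and the 5 wider pathway genes with the highest peak in each list; other members appear in their family's account. The density in flanks and the segments of genes were added after the values were seen. Intervals are 95% exact binomial (Clopper-Pearson) and cover counting error only. The counting steps were checked on simulated peaks. Alternatives were other windows, score limits, overlap rules and like-length sets. The tools were pandas 2.3.3 and numpy 2.4.6 under Python 3.11.15, with scipy 1.17.1 for intervals and matplotlib 3.10.9 for plots.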

Additional observations from a re-analysis of the deposited data

How the results depend on the processing

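Of 52 alternative values 44 stayed within 1.5 times the value given. With a window of 50 kb, 1 gene had an SCI peak alone and 5 a sham peak alone (like-length genes gave 0.415 and 4.415, and the shares of protein-coding genes were 1.60 and 13.0%). With only the upper part of each list by score (the median or more), 1 gene had an SCI peak alone (like-length 3.1, and 6.61% of protein-coding genes). With equal numbers of top-scoring peaks, 4 genes had a sham peak alone and 4 an SCI peak alone (like-length 7.555 and 7.235, and 16.2 and 15.1% of protein-coding genes), and 40 genes had a sham peak, as in SCI. Shared SCI positions numbered 23 with a reciprocal overlap of 50%, and 16 of 80 peaks with scores at or above the median. Peaks near a gene end numbered 3 within 500 bp and 64 within 5 kb, against 11 within 1 kb. In each of these settings with a count of genes, members with a sham peak stayed below the like-length number. No paired analysis was possible because each condition has 1 library and no result comes from a test. Depth is unknown, so a gene without a peak may have binding below what these libraries could show.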
